A study of Homo sapiens with 4 samples.

Results

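The mRNAs of the mitochondrial respiratory chain were followed in MDA-MB231 cells with and without PIAS1 knockdown. The genes were taken by symbol, as all probe sets whose only gene symbol began with NDUF, UQCR, ATP5 or COX4 to COX8, or was SDHA, SDHB, SDHC or SDHD. This gave 106 of the 22277 probe sets, for 73 of the 11963 genes measured. Of the 73 genes, 62 encode structural subunits, with 28 in complex I, 3 in complex II, 6 in complex III, 10 in complex IV and 15 in complex V. The other 11 are the complex I assembly factors NDUFAF1, NDUFAF3, NDUFAF4, NDUFAF5 and NDUFAF7, the muscle isoforms COX6A2 and COX7A1, the supercomplex factor COX7A2L, the ATP synthase inhibitor ATP5IF1, the pseudogene ATP5MC2P1 and the antisense RNA NDUFB2-AS1. No probe set of the mitochondrial genome was measured under the names listed for it (0 of 26), so the subunits encoded there are not analysed here.

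MDA-MB231 is a human breast cancer line with mesenchymal features. Stable lines were made by lentiviral infection and puromycin selection, and expressed PIAS1 shRNA2 or a scrambled control shRNA from the U6 promoter. Total RNA was taken after 30 h in SCM, a serum-free stem cell medium with EGF, basic FGF and insulin, or in DMEM with 10% FBS, and the RNA of each condition was hybridised to 1 Affymetrix human expression array, 4 arrays in all. SCM was also made on a different base medium, with added albumin, so the media differed in more than serum and growth factors. With 1 array per condition no ratio has a replicate check, none was tested, and only 1 PIAS1 shRNA was measured.

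The respiratory chain sits in the inner mitochondrial membrane. Complex I takes electrons from NADH and complex II from succinate, and complexes III and IV pass them on to oxygen while complexes I, III and IV pump protons. Complex V, the ATP synthase, lets the protons back through a rotating ring of c subunits and makes ATP. Most subunits are encoded in the nucleus, made in the cytosol and imported, and many of their promoters carry sites for the transcription factors NRF1, GABP (NRF2) and YY1.

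Upstream sequences are shown for 4 genes that had lower signals in SCM than in DMEM in both lines. Each is the 250 bases before the start of the RefSeq transcript (GRCh38.p14), read on the strand of the gene, at chr17:48892537-48892786 (plus strand) for ATP5MC1, chr12:4648864-4649113 (plus) for NDUFA9, chr5:1801157-1801406 (plus) for NDUFS6 and chr6:96897892-96898141 (minus) for NDUFAF4. Capitals mark matches to the motifs searched.
ATP5MC1: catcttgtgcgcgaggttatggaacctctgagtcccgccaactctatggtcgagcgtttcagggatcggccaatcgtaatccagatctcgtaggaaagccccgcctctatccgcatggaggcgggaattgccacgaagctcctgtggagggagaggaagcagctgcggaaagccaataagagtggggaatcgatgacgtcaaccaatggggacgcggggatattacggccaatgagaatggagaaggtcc
NDUFA9: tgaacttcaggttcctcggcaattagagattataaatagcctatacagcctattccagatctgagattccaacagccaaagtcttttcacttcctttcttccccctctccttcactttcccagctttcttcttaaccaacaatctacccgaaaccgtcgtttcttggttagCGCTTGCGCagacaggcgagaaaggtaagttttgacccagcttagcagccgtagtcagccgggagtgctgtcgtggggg
NDUFS6: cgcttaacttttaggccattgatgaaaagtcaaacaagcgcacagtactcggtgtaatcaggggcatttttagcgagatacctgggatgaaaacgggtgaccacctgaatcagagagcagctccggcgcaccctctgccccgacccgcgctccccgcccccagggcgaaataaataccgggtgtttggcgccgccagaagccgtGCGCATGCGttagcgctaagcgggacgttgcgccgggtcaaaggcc
NDUFAF4: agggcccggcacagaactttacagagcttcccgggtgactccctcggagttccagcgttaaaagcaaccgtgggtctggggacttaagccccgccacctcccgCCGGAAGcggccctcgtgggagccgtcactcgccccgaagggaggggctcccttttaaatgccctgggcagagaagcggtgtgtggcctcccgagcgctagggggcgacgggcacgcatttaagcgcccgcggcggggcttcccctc
The motifs were GCGCANGCG for NRF1, CCGGAAG for GABPA, AAGATGGCG for YY1 and the E-box CACGTG, searched on both strands, and matches to different motifs could overlap. NDUFA9 and NDUFS6 held 1 NRF1 match each, NDUFAF4 held 1 GABPA match and ATP5MC1 held 0 matches. Promoters were listed for 64 of the 73 genes, 55 of them structural. The NRF1 letters stood upstream of 18 of the 55 structural subunits (32.7%), and of 7.98% of all 27305 genes with a listed promoter. The GABPA letters stood upstream of 15 (27.3%), and of 10.2% of all genes. The YY1 letters were found for 1 subunit (1.82%) and 0.784% of all genes, and the E-box for 5 (9.09%) and 7.73%. A match is a description of these letters only.

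PIAS1 encodes the SUMO ligase that the shRNA targets. Of its 3 probe sets, the brightest read 671 in PIAS1 shRNA2 cells and 1814 in control shRNA cells in SCM, and 512 in PIAS1 shRNA2 cells and 1383 in control shRNA cells in DMEM, or 37.0% of control in both media. The second read 31.5% of control in SCM and 23.8% in DMEM, and the third 77.9% in SCM and 23.1% in DMEM, where its signal of 158 in PIAS1 shRNA2 cells was at background. The authors deposited MAS5 signals, which are intensities on a linear scale. Their median was 569 to 605 per array and the 3' to 5' signal ratio of ACTB was 1.07 to 1.11 on the SCM arrays and 0.946 to 0.982 on the DMEM arrays. For GAPDH this ratio was 0.834 to 0.879 on the SCM arrays and 0.858 to 0.860 on the DMEM arrays. Of the mesenchymal markers VIM, CD44, FN1, AXL, MSN and CAV1, 6 of 6 were above background on all arrays. Of the luminal markers, which this line is known to express weakly, CDH1 and PGR were at background on all arrays. ESR1 lay at 206 to 706 and EPCAM at 486 to 1067, while KRT19, at 3680 to 18700, and GATA3, at 1718 to 6040, were clearly detected. Genes of other tissues, which these cells should not express, set a floor of 198 for signals taken as background, and lower signals were raised to it before ratios were formed.

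Respiratory chain mRNAs were among the well detected genes on these arrays. Each of the 62 structural subunits was above the floor on all 4 arrays, with signals of 1178 to 49186. Of all 73 genes, 69 were above the floor on all arrays, and COX7A1, the muscle form of a complex IV subunit, was below it on all 4. NDUFAF5, NDUFAF7 and NDUFB2-AS1 crossed it. COX6A2, the other muscle isoform, was above the floor but dim, at 372 in PIAS1 shRNA2 cells and 346 in control shRNA cells in SCM, and 300.2 in PIAS1 shRNA2 cells and 356 in control shRNA cells in DMEM. The ubiquitous isoforms COX6A1, COX7A2, COX4I1, COX6B1, COX7B and COX8A were all detected on the 4 arrays.

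Knockdown of PIAS1 left the structural subunits close to their control levels in both media. In SCM, 61 of the 62 subunits differed by less than 1.25-fold between PIAS1 shRNA2 and control shRNA cells, and in DMEM also 61 of 62. The subunits outside this range were different in the 2 media. NDUFS7, which carries the last iron-sulfur cluster of complex I, read 2048 in PIAS1 shRNA2 cells and 2755 in control shRNA cells in SCM, a log2 ratio of -0.43, against 0.10 in DMEM. NDUFA1, a small membrane subunit of complex I, read 17662 in PIAS1 shRNA2 cells and 23562 in control shRNA cells in DMEM, a log2 ratio of -0.42, and 31444 and 31132 in these lines in SCM.

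At 1.5-fold, 0 of 62 structural subunits, each read on its brightest probe set, were higher or lower with PIAS1 shRNA2 in either medium. Dimmer probe sets of COX7C (-0.65) and NDUFB8 (-0.80) were past 1.5-fold lower in DMEM, where the brightest gave -0.01 and 0.04. A dim probe set of ATP5F1C gave -1.45 in SCM, with signals of 209 and 571, where the brightest gave -0.09. Over all 73 genes in SCM, 2 of the 70 above the floor were at least 1.5-fold higher in PIAS1 shRNA2 cells, where 7.03% of all 9164 genes above the floor were, and 1 was at least 1.5-fold lower, where 6.53% of all genes were. In DMEM, 1 of 72 was higher, against 6.14% of all 8793 genes, and 0 were lower, against 4.28%. Bright genes passed 1.5-fold less often than all genes. Among the 1804 genes with a mean signal of at least 6375, the lower quartile of the 73, 1.88% were 1.5-fold higher and 2.16% lower in SCM, and 1.44% were higher and 1.39% lower in DMEM. Of these bright genes 84.2% lay within 1.25-fold in SCM and 89.0% in DMEM, and the corresponding share of the structural subunits was 98.4% in each medium.

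The small ratios leaned to the lower side. In SCM 41 of the 62 subunits had a lower signal with PIAS1 shRNA2, with a median log2 ratio of -0.04, where the median over all genes was 0.00. In DMEM 41 of 62 were also lower, with a median of -0.07 against 0.01 over all genes. With the arrays scaled to a common median, 47 of 62 were lower in DMEM and 41 in SCM. That scaling also moved all genes in DMEM, where 4997 of 8835 were lower, with a median of -0.04, against 4259 of 8793 as deposited. The SCM and DMEM ratios of the 62 subunits, which share no array, correlated with a Pearson coefficient of -0.01 and a Spearman coefficient of 0.09 across genes, and 36 of 62 had the same sign. Over the 1804 bright genes the corresponding correlations were 0.27 and 0.26.

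Of complex III, the cytochrome bc1 complex, the 6 subunits taken by symbol were lower in both media, under the deposited scaling, common-median scaling and quantile normalization alike. Other complex III subunits measured outside these 6 did not share this direction in SCM, where cytochrome c1 (CYC1) was at 0.14 and the probe set that UQCRH shares with UQCRHL at 0.10, against -0.10 and 0.01 in DMEM. The sizes were small. In SCM the log2 ratios were -0.21 for UQCR10, -0.13 for the core protein gene UQCRC1 and for UQCRQ, -0.08 for UQCR11, -0.06 for UQCRB and -0.03 for UQCRC2. In DMEM they were -0.31 for UQCR10, -0.23 for the other core protein UQCRC2, -0.16 for UQCR11, -0.11 for UQCRB, -0.10 for UQCRC1 and -0.02 for UQCRQ. UQCR10 was the subunit furthest from control in each medium, with 20140 in PIAS1 shRNA2 cells and 23236 in control shRNA cells in SCM, and 22718 and 28240 in these lines in DMEM. The direction of UQCRB depended on the probe set, since its 2 dimmer probe sets gave 0.09 and -0.03 in SCM and -0.34 and 0.25 in DMEM.

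The medians of the other complexes lay between -0.09 and 0.10. Complex I, the NADH dehydrogenase, had -0.01 in SCM, with 12 subunits higher and 16 lower, and -0.09 in DMEM, with 7 higher and 21 lower. With common-median scaling the DMEM counts were 4 and 24 and the median was -0.15, where the median over all genes was -0.04. The highest complex I ratios in SCM were those of the acyl carrier protein NDUFAB1 (0.31) and of NDUFA9 (0.30), a subunit near the quinone site. Complex IV, cytochrome c oxidase, had -0.04 in SCM and -0.02 in DMEM. Complex V had -0.03 in SCM and 0.01 in DMEM, with ATP5ME at 0.24 and the delta subunit ATP5F1D at -0.24 as its extremes in SCM, and ATP5MC2 at 0.28 and the stalk subunit ATP5PD at -0.26 in DMEM. The 3 measured subunits of complex II, succinate dehydrogenase, had medians of -0.01 in SCM and 0.10 in DMEM. They lay between -0.10 (SDHA) and 0.00 (SDHD) in SCM, and between -0.26 (SDHD) and 0.15 (SDHA) in DMEM.

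**Figure D1:**
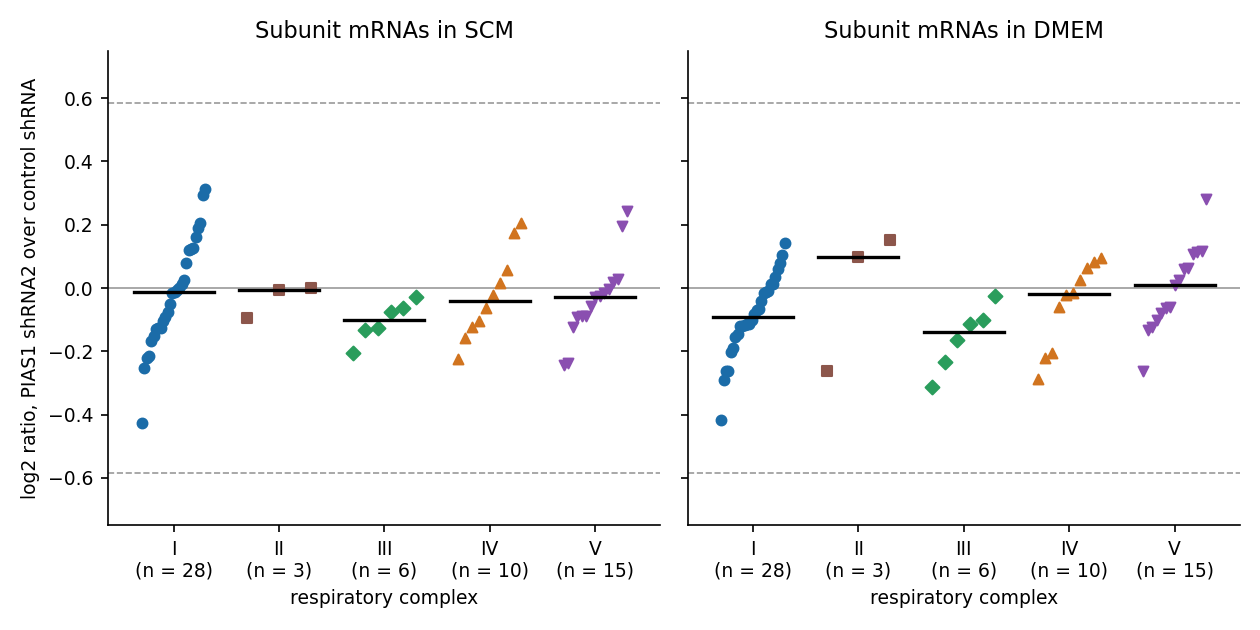
Knockdown ratio (log2, PIAS1 shRNA2 over control) of 62 structural subunits, by respiratory complex (x axis), in SCM (left) and DMEM (right). Each symbol is 1 gene, black bars are medians, the dashed lines mark 1.5-fold and no symbol crosses them; the 6 complex III subunits plotted lie below 0 in both panels, while CYC1 and the shared UQCRH probe set, which are not plotted, were at 0.14 and 0.10 in SCM.

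The genes above the floor that passed 1.5-fold with PIAS1 knockdown in SCM were 3 assembly factors of complex I. NDUFAF4, an early assembly factor that works with NDUFAF3, read 1630 in PIAS1 shRNA2 cells and 688 in control shRNA cells in SCM, and 3860 in PIAS1 shRNA2 cells and 3408 in control shRNA cells in DMEM. The knockdown cells thus had 2.37-fold more signal in SCM and 1.13-fold more in DMEM. NDUFAF1, which acts early in the assembly of the membrane arm, read 4361 in PIAS1 shRNA2 cells and 2695 in control shRNA cells in SCM, and 2251 and 2266 in these lines in DMEM. The SCM signal of PIAS1 shRNA2 cells stood apart from the other 3 arrays, and NDUFAF1 was 1.62-fold higher with PIAS1 shRNA2 in SCM.

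The other factors went the other way or were dim. NDUFAF7, a methyltransferase, was below the floor in PIAS1 shRNA2 cells, at 148 in SCM and 104 in DMEM, and read 380 and 215 in control shRNA cells in SCM and DMEM. The knockdown cells were at least 1.92-fold lower in SCM, and at least 1.09-fold lower in DMEM. NDUFAF3 read 6105 in PIAS1 shRNA2 cells and 8910 in control shRNA cells in SCM, a log2 ratio of -0.55 and the lowest among genes with both signals above the floor. NDUFAF5 was above the floor only in PIAS1 shRNA2 cells in DMEM, at 217. The difference between media in the log2 ratio, SCM minus DMEM, was 1.06 for NDUFAF4 and 0.70 for NDUFAF1, and its median over the 72 genes above the floor was 0.01. These differences were not tested. The 4 luminal markers above the floor moved in the same comparison, with a median log2 ratio of -0.72 in SCM and -0.18 in DMEM, and their part in these results was not tested.

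**Figure D2:**
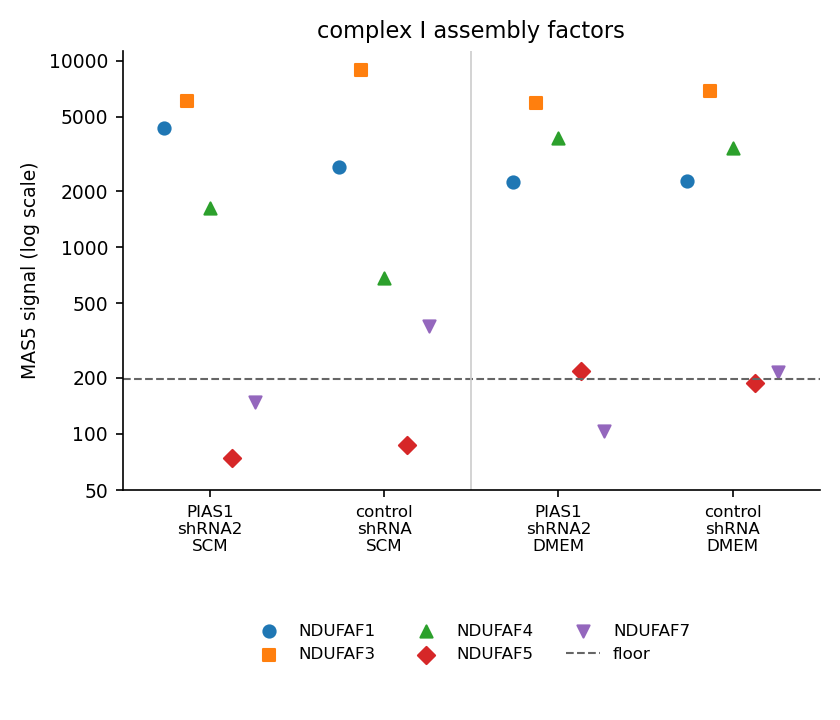
MAS5 signal (log scale) of 5 complex I assembly factors on the 4 arrays, with PIAS1 shRNA2 left of control shRNA within SCM and within DMEM; the dashed line is the floor of 198. NDUFAF4 is lower on both SCM arrays than on both DMEM arrays, and in SCM it is higher with PIAS1 shRNA2 (1630) than with control shRNA (688).

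The antisense RNA NDUFB2-AS1 was the 1 gene past 1.5-fold in DMEM, with 354 in PIAS1 shRNA2 cells and 200 in control shRNA cells, just above the floor. In SCM it was below the floor in both lines. It lies at chr7:140695336-140697077 (GRCh38.p14) and overlaps NDUFB2 at chr7:140696708-140706643, whose own signal was within 1.25-fold in all 4 comparisons.

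SCM changed a few subunits and left most of the chain near its DMEM level, in both lines. In PIAS1 shRNA2 cells, 45 of the 62 structural subunits were within 1.25-fold between SCM and DMEM, or 72.6%, where 35.1% of all genes and 41.1% of the 1804 bright genes were. In control shRNA cells it was 46 of 62, or 74.2%, where 34.7% of all genes and 40.4% of the bright genes were. The median log2 ratio of the subunits was 0.01 in PIAS1 shRNA2 cells and 0.05 in control shRNA cells, and 32 of 62 and 34 of 62 were higher in SCM. With the arrays scaled to a common median these medians were -0.02 and -0.04, with 30 and 25 of 62 higher, so no direction can be given for the group. Since cells were lysed in bulk, fewer cells of a kind and less RNA per cell cannot be told apart in any of these signals. The ACTB ratio also differed between the media, while the GAPDH ratio did not separate them. For SCM over DMEM the 4 luminal markers had medians of 0.78 in PIAS1 shRNA2 cells and 1.34 in control shRNA cells. They did not move as 1 group, since in each line 3 were at least 1.5-fold higher and 1 was at least 1.5-fold lower. Of the 6 mesenchymal markers, 2 were higher and 1 lower past 1.5-fold in each line. The part of the ACTB ratio and of these markers was not tested.

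At 1.5-fold, 4 of the 71 genes above the floor were higher in SCM in PIAS1 shRNA2 cells, where 21.5% of all 9139 genes were, and 5 were lower, where 21.3% were. In control shRNA cells 3 of 71 were higher, where 21.8% of all 9011 genes were, and 4 were lower, where 21.7% were. At 2-fold, 0 were higher and 2 were lower in each line. Of all genes, 992 were higher and 948 lower at 2-fold among 9139 in PIAS1 shRNA2 cells, and 958 and 975 among 9011 in control shRNA cells. Of the structural subunits 2 were higher and 3 lower in each line, and in the bright genes 18.3% and 18.4% were higher and lower in PIAS1 shRNA2 cells and 16.7% and 20.0% in control shRNA cells.

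The ratios of the subunits in the 2 lines went together. Across the 62 subunits the SCM over DMEM ratios of PIAS1 shRNA2 and control shRNA cells, measured on separate arrays, gave a Pearson coefficient of 0.84 and a Spearman coefficient of 0.81, with the same sign for 56 of 62. The corresponding values over the 1804 bright genes were 0.93 and 0.92. These are correlations across genes, which are not independent replicates. Of the subunits, 6 were at least 1.25-fold lower in SCM in both lines (ATP5MC1, ATP5PB, NDUFA9, NDUFB7, NDUFS3 and NDUFS6) and 3 were at least 1.25-fold higher (COX6C, NDUFA1 and NDUFC1). No share over all genes was taken for this overlap, so it only lists genes. In single lines the bright genes lay within 1.25-fold less often (41.1% and 40.4%) than the subunits (72.6% and 74.2%).

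**Figure D3:**
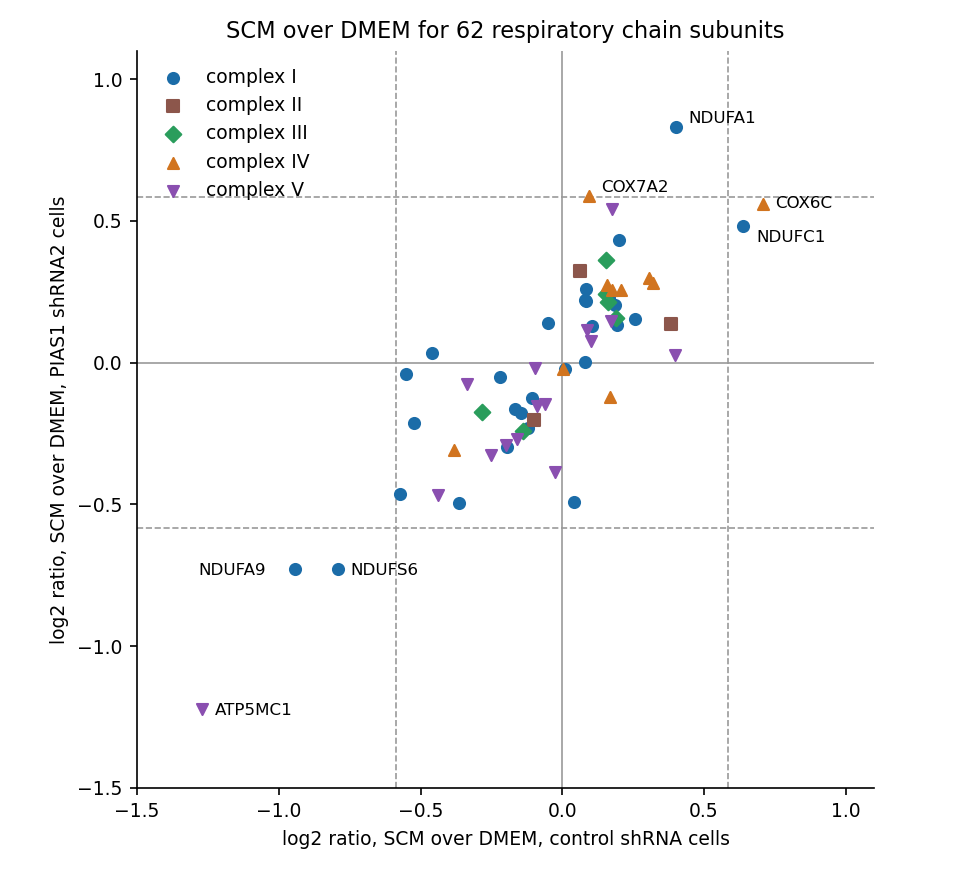
Log2 ratio of SCM over DMEM for 62 structural subunits in PIAS1 shRNA2 cells (y axis) against control shRNA cells (x axis), with 1 symbol per gene and the complex as symbol; dashed lines mark 1.5-fold. ATP5MC1, NDUFA9 and NDUFS6 lie past 1.5-fold on the lower side in both lines, and most subunits lie near 0 on both axes.

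On the brightest probe sets, the largest change of a subunit was in the c ring of ATP synthase. The genes ATP5MC1, ATP5MC2 and ATP5MC3 encode the same mature c subunit with different import sequences. ATP5MC1 read 2994 in PIAS1 shRNA2 cells and 3055 in control shRNA cells in SCM, against 6976 in PIAS1 shRNA2 cells and 7366 in control shRNA cells in DMEM. It was 2.33-fold lower in SCM in PIAS1 shRNA2 cells and 2.41-fold lower in control shRNA cells, and both SCM signals were below both DMEM signals. ATP5MC3 read 30537 in PIAS1 shRNA2 cells and 30583 in control shRNA cells in SCM, against 33964 and 32570 in these lines in DMEM, with log2 ratios of -0.15 and -0.09. ATP5MC2 read 13361 in PIAS1 shRNA2 cells and 14244 in control shRNA cells in SCM, against 13123 and 10807 in these lines in DMEM, with log2 ratios of 0.03 and 0.40. The c ring thus had 1 gene that fell beside 2 that stayed within 1.5-fold. The upstream sequence of ATP5MC1 printed above is the one with 0 matches to the motifs searched.

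Among the other 12 subunits of complex V none reached 1.5-fold on its brightest probe set. On these the peripheral stalk subunit ATP5PB was the next lowest, at -0.47 in PIAS1 shRNA2 cells and -0.44 in control shRNA cells. On dimmer probe sets ATP5F1D (-0.67) and ATP5MG (-0.60) were past 1.5-fold lower in control shRNA cells, where the brightest gave -0.03 and -0.25. Dimmer probe sets passed on the higher side for ATP5PO in PIAS1 shRNA2 cells (0.60) and ATP5F1C in control shRNA cells (at least 1.53). The catalytic F1 subunits ATP5F1A and ATP5F1B were at -0.07 and -0.29 in PIAS1 shRNA2 cells and at -0.33 and -0.20 in control shRNA cells. Of the 15 subunits, 10 were lower in SCM in each line, with medians of -0.15 and -0.09. The inhibitor ATP5IF1, which blocks ATP hydrolysis by the enzyme, was at 0.23 and 0.09.

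In complex I, NDUFA9 and NDUFS6 were lower in SCM in both lines. NDUFA9, which sits at the joint of the matrix and membrane arms, read 3932 in PIAS1 shRNA2 cells and 3204 in control shRNA cells in SCM, against 6513 and 6167 in these lines in DMEM, and was 1.66-fold and 1.92-fold lower. NDUFS6, a zinc-binding subunit of the NADH-oxidizing module, read 7462 in PIAS1 shRNA2 cells and 7733 in control shRNA cells in SCM, against 12346 and 13386 in these lines in DMEM, and was 1.65-fold and 1.73-fold lower. For both genes every SCM signal was below every DMEM signal. Their upstream sequences printed above hold an NRF1 match each, which 18 of the 55 structural subunits with a listed promoter share.

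The higher subunits were small membrane proteins. COX6C, of complex IV, read 40503 in PIAS1 shRNA2 cells and 44093 in control shRNA cells in SCM, against 27506 and 27004 in these lines in DMEM, and was 1.47-fold and 1.63-fold higher. NDUFC1, of complex I, read 17107 in PIAS1 shRNA2 cells and 19230 in control shRNA cells in SCM, against 12239 and 12349 in these lines in DMEM, and was 1.40-fold and 1.56-fold higher. For both genes the SCM signals lay above the DMEM signals, in both lines.

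NDUFA1 and COX7A2 passed 1.5-fold in PIAS1 shRNA2 cells alone, where their DMEM signals were bright but lower than in control shRNA cells. NDUFA1 was 1.78-fold higher in SCM in PIAS1 shRNA2 cells and 1.32-fold higher in control shRNA cells. COX7A2, the ubiquitous isoform of its complex IV subunit, read 25979 in PIAS1 shRNA2 cells and 22514 in control shRNA cells in SCM, against 17289 and 21089 in these lines in DMEM, and its log2 ratio of 0.59 in PIAS1 shRNA2 cells was at the threshold of 0.58. The difference between the lines was not tested for either gene. Complex IV as a whole had 7 of 10 subunits higher in SCM in PIAS1 shRNA2 cells and 9 of 10 in control shRNA cells, with medians of 0.26 and 0.17, and with common-median scaling 7 and 8 of 10 were higher, with medians of 0.23 and 0.08. Its lowest was COX5A, a matrix-side subunit, at -0.31 and -0.38. Complex III had medians of 0.19 and 0.15, complex II of 0.14 and 0.06, and complex I of -0.01 and -0.02.

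**Figure D4:**
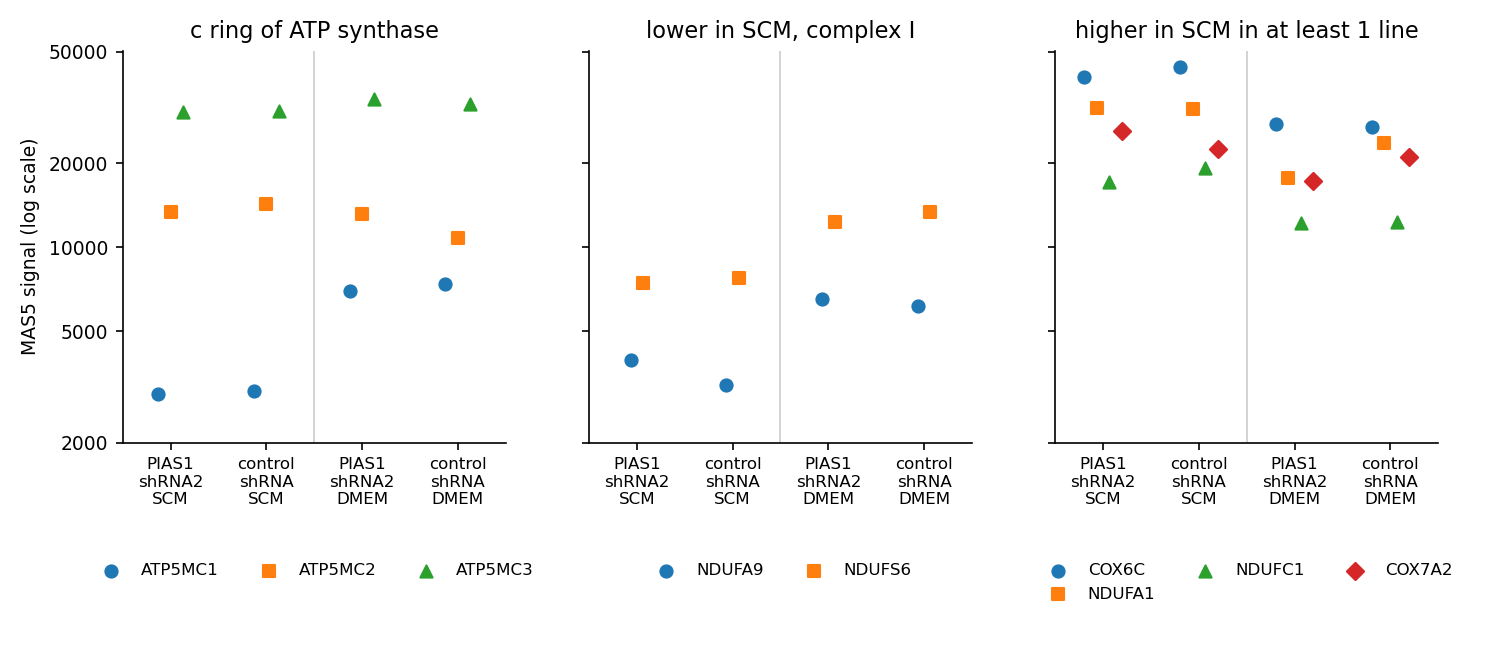
MAS5 signal (log scale) on the 4 arrays, with PIAS1 shRNA2 left of control shRNA within SCM and within DMEM, for the c ring genes (left), the complex I subunits lower in SCM (middle) and subunits past 1.5-fold higher in SCM in at least 1 line (right). ATP5MC1 reads 2994 and 3055 on the SCM arrays and 6976 and 7366 on the DMEM arrays, while ATP5MC2 and ATP5MC3 stay within 1.5-fold.

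Of the genes that are no subunits, NDUFAF4 changed most with the medium. It was 2.37-fold lower in SCM in PIAS1 shRNA2 cells and 4.95-fold lower in control shRNA cells. NDUFAF1 was 1.94-fold higher in SCM in PIAS1 shRNA2 cells and 1.19-fold higher in control shRNA cells, and NDUFAF7 was 1.76-fold higher in control shRNA cells, where its DMEM signal of 215 was near the floor. The pseudogene ATP5MC2P1 read 402 in PIAS1 shRNA2 cells and 373 in control shRNA cells in SCM, against 204 and 262 in these lines in DMEM, with log2 ratios of 0.98 and 0.51. Whether its probes also match the parent gene ATP5MC2 was not tested. NDUFB2-AS1 was at least 1.79-fold lower in SCM in PIAS1 shRNA2 cells.

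Among other mitochondrial genes, some lists held more members past 1.5-fold between the media. Cytochrome c, which carries electrons between complexes III and IV, and cytochrome c1, a part of complex III, lie outside the symbols used. Both were lower in SCM. CYCS, cytochrome c, read 18669 in PIAS1 shRNA2 cells and 13985 in control shRNA cells in SCM, against 34617 and 36891 in these lines in DMEM, with log2 ratios of -0.89 and -1.40. CYC1, the heme subunit of complex III, read 16208 in PIAS1 shRNA2 cells and 14692 in control shRNA cells in SCM, against 25185 and 26991 in these lines in DMEM, with log2 ratios of -0.64 and -0.88. The 6 complex III subunits of the symbol rule lay between -0.24 and 0.36 in PIAS1 shRNA2 cells and between -0.28 and 0.19 in control shRNA cells.

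The mitochondrial ribosome, which makes the subunits encoded in the organelle, was lower in SCM for many of its proteins. Of 50 ribosomal protein genes above the floor, 21 were at least 1.5-fold lower and 0 higher in SCM in PIAS1 shRNA2 cells, and 32 were lower and 0 higher in control shRNA cells. The shares lower were 42% and 64%, where 21.3% and 21.7% of all genes were lower. The median log2 ratios of these 50 genes were -0.52 and -0.70, against -0.01 and 0.03 over all genes. Examples were MRPS34 with -1.67 and -1.35, MRPL12 with -1.56 and -1.47, MRPS12 with -1.25 and -1.29 and MRPL46 with -1.29 and -1.89 in PIAS1 shRNA2 and control shRNA cells.

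Genes for protein import, through which the nuclear-encoded subunits enter the organelle, were lower as well. Of the 21 measured, 13 were at least 1.5-fold lower and 0 higher in SCM in PIAS1 shRNA2 cells, and 12 were lower and 1 higher in control shRNA cells, with medians of -0.85 and -0.77. The shares lower were 61.9% and 57.1%, where 21.3% and 21.7% of all genes were lower. The small chaperones TIMM10, with -1.79 and -1.65, and TIMM8A, with -1.69 and -1.63, and the outer membrane pore gene TOMM40, with -1.41 and -1.62, were among the lower import genes. TOMM70 was the 1 gene higher in control shRNA cells, at 0.59, against -0.25 in PIAS1 shRNA2 cells.

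Assembly factors with other symbols were mixed. In SCM 5 of 20 above the floor were lower and 1 higher in PIAS1 shRNA2 cells, and 7 of 21 were lower and 1 higher in control shRNA cells. The share lower, 25% in PIAS1 shRNA2 cells, was near the 21.3% of all genes, and in control shRNA cells it was 33.3%, against 21.7%. BCS1L, which inserts the iron-sulfur protein into complex III, had log2 ratios of -1.16 and -1.14, LRPPRC, which stabilizes mitochondrial mRNAs, -0.80 and -0.78, and COA7, a complex IV factor, -0.87 and -2.21. COA7 and TACO1, a translational activator of a complex IV subunit, were also higher with PIAS1 shRNA2 in SCM, at 1.30 and 0.61, against -0.04 and -0.36 in DMEM.

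Enzymes of the TCA cycle and pyruvate metabolism showed both directions, with 3 of 18 higher and 4 lower in SCM in PIAS1 shRNA2 cells and 2 higher and 3 lower in control shRNA cells. These shares, 16.7% and 22.2% in PIAS1 shRNA2 cells and 11.1% and 16.7% in control shRNA cells, were near or below those of all genes given above. IDH2, the NADP-dependent isocitrate dehydrogenase, was at 1.26 and 1.16 and pyruvate carboxylase (PC) at 1.66 and 0.95, while IDH3A, a subunit of the NAD-dependent isocitrate dehydrogenase, was at -1.12 and -1.17 and citrate synthase (CS) at -0.75 and -0.86. Of the inner membrane carriers and uncouplers, a list that also holds ATP5IF1, 4 of 13 were lower in PIAS1 shRNA2 cells and 4 of 12 in control shRNA cells, and 0 were higher. The shares lower were 30.8% and 33.3%, where 21.3% and 21.7% of all genes were lower, an excess of few genes that was not tested. The uncoupling protein UCP2 had -2.13 and -1.83, while the ADP/ATP carrier SLC25A5 had -0.44 and -0.29.

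Regulators of mitochondrial genes were lower more often than higher in SCM. Of the 18 measured, 7 were at least 1.5-fold lower and 1 higher in PIAS1 shRNA2 cells, and 6 were lower and 0 higher in control shRNA cells. The shares lower were 38.9% and 33.3%, where 21.3% and 21.7% of all genes were lower. With 18 genes the excess over all genes is small in number, and it was not tested. GABPB1, a subunit of the GABP factor, had -1.70 and -2.03, while its DNA-binding partner GABPA had -0.11 and -0.14. The factor NRF1 had -0.88 and -0.68, MYC -0.96 and -0.97 and TFAM, the packaging and transcription factor of mitochondrial DNA, -1.30 and -0.76. PPARGC1A, the coactivator PGC-1alpha, was near or below the floor, with signals of 126 to 256.

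**Figure D5:**
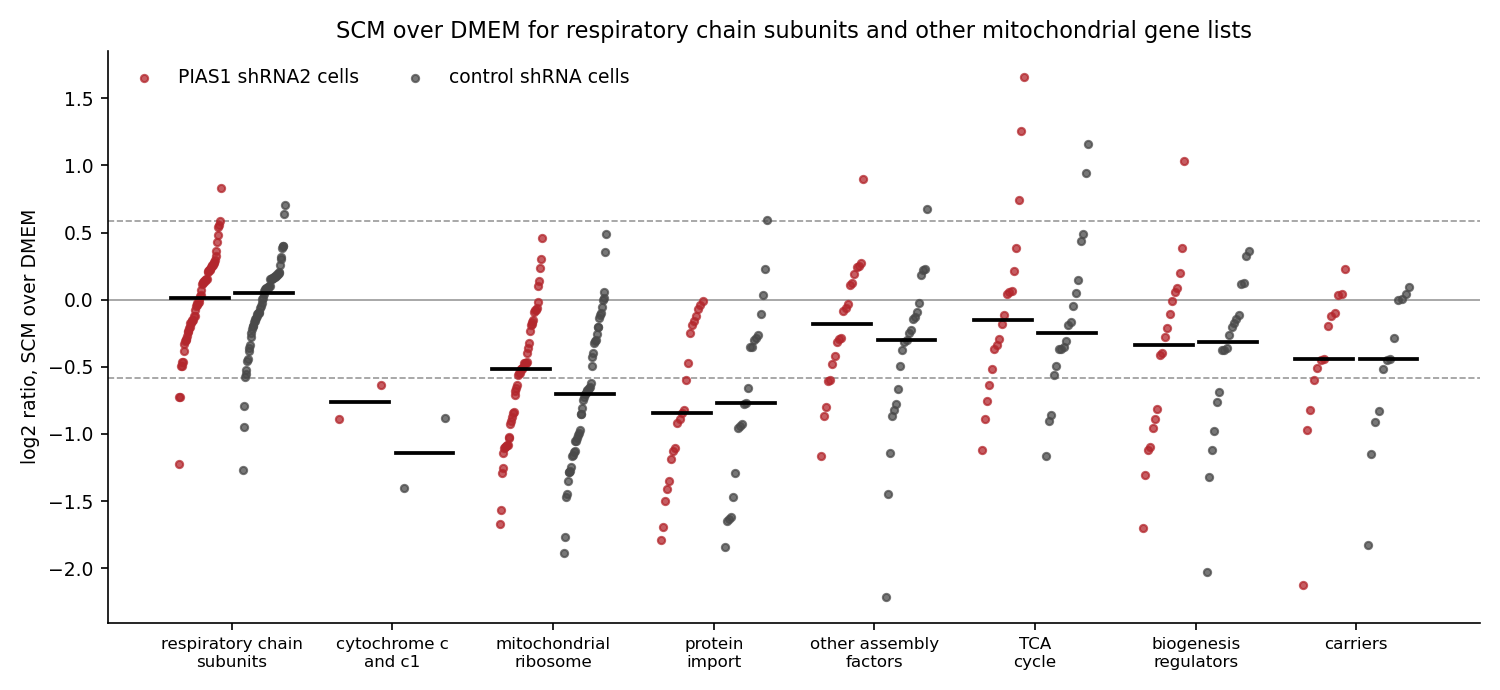
Log2 ratio of SCM over DMEM for the 62 structural subunits and 7 other lists of mitochondrial genes (x axis), with PIAS1 shRNA2 cells left of control shRNA cells in each list. Each point is 1 gene above the floor, black bars are medians and dashed lines mark 1.5-fold; the subunits centre on 0.01 and 0.05, and the ribosomal and import genes centre between -0.52 and -0.85.

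With PIAS1 knockdown at most 2 genes of a list passed 1.5-fold in a direction. Of all genes 7.03% were higher and 6.53% lower in SCM, and 6.14% were higher and 4.28% lower in DMEM. The regulators, with 2 of 18 higher in DMEM (11.1%), and the other assembly factors, with 2 of 21 higher in SCM (9.52%), lay above these shares by few genes. In SCM 2 of 50 mitochondrial ribosomal proteins were higher with PIAS1 shRNA2 and 1 lower, and in DMEM 0 of 49 passed 1.5-fold, while 0 of 21 import genes passed in SCM and 1 was higher in DMEM (TIMM50, 0.93). Of the TCA cycle genes, IDH2 alone passed, at -0.68 in DMEM, against -0.58 in SCM. ATPAF2, an assembly factor of the ATP synthase, was below the floor in PIAS1 shRNA2 cells in DMEM, with a log2 ratio of at most -0.87, against -0.19 in SCM. The regulators had a median of 0.25 in SCM, with 13 of 17 higher, and of 0.11 in DMEM, with 15 of 18 higher (11 of 18 with common-median scaling). Of them 47.1% were within 1.25-fold in SCM, where 65.2% of all genes were. TFAM was at 0.23 in SCM and 0.77 in DMEM, and the mitochondrial rRNA methyltransferase TFB1M at 0.91 in SCM and 0.24 in DMEM, and MTERF1, a mitochondrial transcription termination factor, was at 0.64 in DMEM and below the floor in both lines in SCM. CYCS was at 0.42 in SCM and -0.09 in DMEM.

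For 16 of the 73 genes several probe sets were above the floor on all arrays, which gives a measure of how far probe sets of a gene disagree on the same RNA. The range of their log2 ratios had a median of 0.11 for knockdown in SCM and 0.25 in DMEM, and of 0.28 for the medium in PIAS1 shRNA2 cells and 0.23 in control shRNA cells. The range passed 1.5-fold for 0 genes (SCM) and 4 genes (DMEM) in the knockdown comparisons, and for 6 genes (PIAS1 shRNA2) and 1 gene (control shRNA) between media. UQCRB, a complex III subunit that binds quinone, had the largest range. Its probe sets gave -0.38 to 0.76 for SCM over DMEM in PIAS1 shRNA2 cells, with 0.21 on the brightest. NDUFB8 had a dim probe set, at 290 to 710, that gave -0.80 for knockdown in DMEM where the brightest gave 0.04. COX7C, COX5B, ATP5PO, NDUFA6 and ATP5F1D also had probe sets more than 1.5-fold apart in at least 1 comparison. On its dimmer probe set NDUFA6 was at -0.95 and -0.73 for the medium in PIAS1 shRNA2 and control shRNA cells, against -0.21 and -0.52 on the brightest. ATP5MC1, NDUFA9, NDUFS6, COX6C, NDUFC1, NDUFA1, COX7A2, NDUFAF1, NDUFAF3, NDUFAF4 and NDUFAF7 had 1 probe set each, so they have no such check. Of the 73 genes, 7 were read from probe sets of the x class, whose probes can match other transcripts, among them SDHA, COX4I1 and ATP5MG.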

How the data were processed

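The authors deposited 1 MAS5 signal intensity per probe set and array, on a scale whose trimmed mean (2% off each end) was 2501 for every array. For MAS5, named in the submitters' processing notes, version and settings were not given in the sources used here. Probe sets were named by the platform's gene table. Those with 1 gene (19070) were used, and 9 with several genes of which at least 1 matched the symbols, such as those of NDUFS8 and NDUFC2, were left out. Each gene took the values of the brightest of its probe sets, by mean log2 signal. As floor served the 75th percentile of 78 probe sets, for 55 genes typical of other tissues, on the array where it was highest. Log2 ratios were taken on signals raised to it, for genes above it on at least 1 of the 2 arrays, and counted at 1.5-fold. The RefSeq gene table (GRCh38.p14) matched 73 of 73 genes.

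The members and lists were chosen with earlier results of these data known. Named genes are PIAS1, members and up to 4 genes per list past 1.5-fold, the 3 highest and lowest members per comparison, isoform pairs and members whose probe sets disagree. Genes named beside these, to show a role or an extreme of a complex, the 1804 bright genes and the 1.25-fold range were chosen after values were seen. The software was pandas 2.3.3 with NumPy 2.4.6 and SciPy 1.17.1 under Python 3.11.15, and figures were drawn with matplotlib 3.10.9. The steps were tested on simulated data. The alternatives were other scalings, floors and ways to join probe sets, and structural subunits only.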

Additional observations from a re-analysis of the deposited data

How the results depend on the processing

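With 1 array per condition, the number of arrays limits the precision, no count or median has an error, and differences under the disagreement of probe sets cannot be read. No paired analysis was possible because each condition has 1 array and no test was run. Medians over the 73 genes moved by less than 0.1 under every alternative. With common-median scaling those between media were -0.01 in PIAS1 shRNA2 and -0.01 in control shRNA cells. They were of opposite sign to the values as deposited, 0.03 and 0.08. The knockdown median in DMEM was -0.12 with that scaling, against -0.06 as deposited, and the median over all genes was -0.04, against 0.01. Of the counts at 1.5-fold, 15 moved by over 1.5 times; they are counts of 0 to 8 genes. Without a floor, 2 genes were lower with PIAS1 shRNA2 in SCM and 2 in DMEM, and 7 were lower in SCM in control shRNA cells. With the floor at the highest array median, 605, 0 were lower with PIAS1 shRNA2 in SCM and 0 higher in DMEM. With each probe set on its own, 2 were lower with PIAS1 shRNA2 in SCM and 2 in DMEM, 8 were higher in SCM in PIAS1 shRNA2 cells and 7 lower in SCM in control shRNA cells. With common-median scaling, 7 were lower in SCM in control shRNA cells. With structural subunits only, 0 were higher with PIAS1 shRNA2 in SCM or DMEM and 0 lower in SCM, and 2 were higher and 3 lower in SCM in PIAS1 shRNA2 cells. Among ratios of single genes past 1.5-fold, 0 reversed and 4 fell under the threshold: COX7A2 in PIAS1 shRNA2 cells (0.55 with common-median scaling, 0.52 with quantile normalization), and in control shRNA cells NDUFC1 (0.55 with common-median scaling) and NDUFAF7 (0.55 with quantile normalization). The causes were not tested.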

Other observations

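Probe sets that list several genes were left out of the counts, and 6 of the 9 name a subunit beside another gene, so their signals cannot be given to 1 gene. For SCM over DMEM, the probe sets listed with NDUFS8, an iron-sulfur subunit of complex I, had log2 ratios of -0.55 and -0.21 in PIAS1 shRNA2 cells and -0.52 and -0.19 in control shRNA cells. The probe set listed with UQCRH, the hinge protein of complex III, had 0.16 in PIAS1 shRNA2 cells and 0.07 in control shRNA cells. The probe set listed with NDUFC2, a membrane subunit of complex I, had -0.22 and -0.37 in these lines, and that listed with ATP5MF, a membrane subunit of ATP synthase, had -0.22 and -0.21. The probe set listed with NDUFS5 and the ribosomal protein gene RPL10 had 0.45 and 0.06. None of the 9 passed 1.5-fold in any comparison.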
